A study of Manihot esculenta with 32 samples.

Results

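In the cassava atlas, 300 gene loci had transcripts concentrated in the leaf blade and its midvein. They were chosen by their level in each tissue/organ type, measured as FPKM, which is the number of fragments scaled to transcript length and to the size of the library. For every locus with a gene name, the mean FPKM of each of the 11 tissue/organ types was taken as log2(mean + 1) and the types were put in order. A locus qualified when the largest gap between neighbours in that order was at least 1.5, its highest mean was at least 10 FPKM, and the types above the gap were exactly leaf and midvein, or leaf only. Of 32732 named loci, among 38593 loci in all, 575 qualified, and the 300 with the largest gaps were kept. For 277 of them leaf and midvein lay above the gap, and for 23 leaf alone did. Since leaf and midvein levels chose the loci, those levels are given below as a description, without a test.

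The 32 RNA-seq libraries came from cassava (Manihot esculenta) cultivar TME 204. Plants were 3 months old and grown in a glasshouse with 12 h of light. They gave leaf blade, leaf midvein, petiole, stem, lateral bud, storage root, fibrous root, and the apical meristems of shoot (SAM) and root (RAM). Organized embryogenic structures (OES, 4 weeks old) and friable embryogenic callus (FEC, 7 weeks old by the sample labels) were grown in culture. Their basal media differed, so culture type, medium and age cannot be told apart where OES is set against FEC. Each type had 3 biological replicates, except storage root with 2. Every SAM and RAM library pooled 6 meristems, and its RNA was isolated with another kit and fragmented with less enzyme, so preparation and tissue cannot be told apart where a meristem is set against other types. Tissues were dissected by hand, and neighbouring organs have no sharp boundary. In bulk tissue, fewer cells that express a gene and less RNA per cell cannot be told apart.

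The leaf blade is where cassava fixes carbon. Light is captured by antenna proteins and the photosystems in the thylakoid membranes of the chloroplast, electron transport yields NADPH and ATP, and the Calvin cycle spends them to fix carbon dioxide through Rubisco in the stroma. Rubisco also takes oxygen, and photorespiration returns the resulting carbon through reactions in the chloroplast, the mitochondrion and the peroxisome, in the last of which catalase removes the hydrogen peroxide formed. The midvein is the central vascular strand of the blade, and petiole, stem and buds are green organs as well, with fewer chloroplasts.

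Depth decided how well each locus was measured. Libraries held 4175114 (a petiole library) to 24123487 (an FEC library) fragments on named loci. At least 10 fragments in every leaf library backed 282 of the 300 loci, 273 of them above the gap in leaf and midvein and 9 in leaf only. Of the other 18, 13 had fewer than 10 fragments in every leaf library and 10 had at most 3 fragments in every library of the atlas. FPKM of such loci is unstable. Manes.10G051400 headed the order of gaps with a leaf mean of 21058 FPKM, which came from 63175 FPKM in leaf replicate 3, where it had 1 fragment, and 0 in every other library. The 6 loci with the largest leaf-only gaps (Manes.10G051400, Manes.07G133200, Manes.02G216900, Manes.02G125600, Manes.13G125900 and Manes.04G115300) and the top pair above the gap in leaf and midvein (Manes.13G070000 and Manes.05G103800) were all of this kind. The values that follow are therefore those of the 282 well covered loci unless all 300 are named.

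The limits of the choice fell among ordinary values. Just inside the limit of 300 were Manes.06G093600, with 18.6 FPKM in leaf, 5.31 FPKM in midvein and a gap of 2.11, and the catalase gene Manes.01G154400, with 21.7 FPKM in leaf, 9.95 FPKM in midvein and a gap of 2.11. Just outside it were Manes.03G065300 (114 FPKM in leaf, 48.1 FPKM in midvein) and Manes.03G089200 (133 FPKM in leaf, 66.3 FPKM in midvein), each with a gap of 2.10. A further 8 loci had such gaps but a highest mean below 10 FPKM.

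Together the loci took a large part of the leaf transcriptome, a smaller part of that of midvein and little of any other. All 300 accounted for 10.4% to 12.8% of the fragments of a leaf library and 6.23% to 7.64% of a midvein library, against 0.543% to 0.718% in petiole, 0.566% to 0.634% in stem and 0.110% to 0.129% in RAM. The median level of the well covered loci was 148 FPKM in leaf and 69.6 FPKM in midvein. In the green organs below the gap it was 6.16 FPKM in petiole, 6.79 FPKM in stem, 4.67 FPKM in lateral bud and 2.19 FPKM in SAM. In the remaining types it was below 1 FPKM, from 0.376 FPKM in storage root to 0.908 FPKM in FEC. Over all 27855 loci tested, the median lay between 6.67 and 9.53 FPKM in every type.

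**Figure D1:**
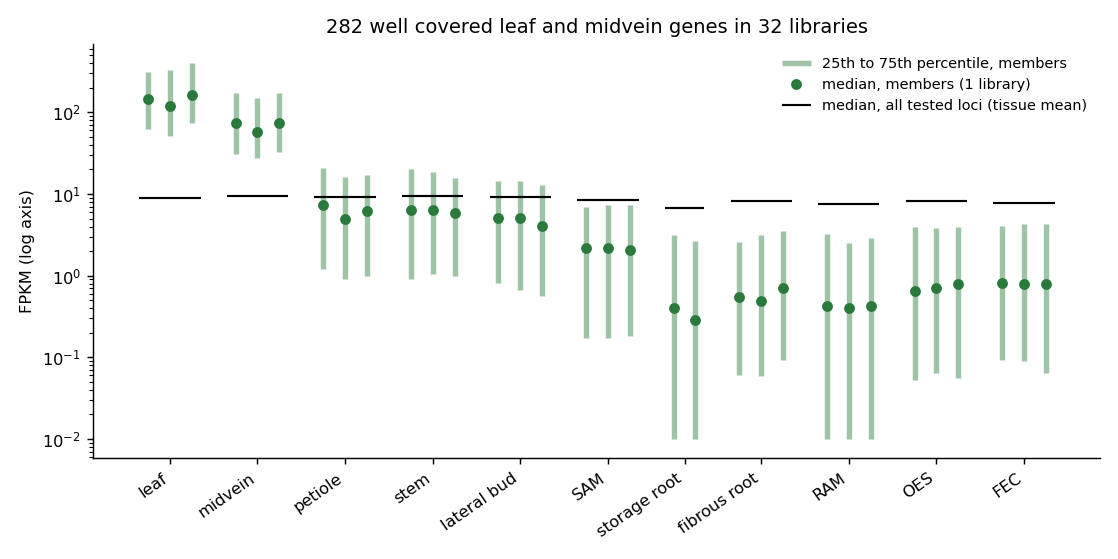
Median (points) and 25th to 75th percentile (bars) of FPKM over the 282 well covered loci in each of the 32 libraries, on a log axis, with the median of all tested loci in each tissue/organ type as a black line. The leaf and midvein medians (148 and 69.6 FPKM over type means) stand above that line and the medians of all other types stand below it.

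Confinement was a matter of degree. In 283 of the 300 loci every leaf library lay above every library outside leaf and midvein, which the choice by gaps between type means made likely. A mean below 1 FPKM in all 9 other types was found for 54 loci (43 of them well covered). At the other end, 132 reached a mean of at least 10 FPKM in some other type, and 71 had at least 1 FPKM in all 9. The leaf mean exceeded the highest mean outside leaf and midvein by a median of 16.9-fold. That next type was stem for 102 loci, petiole for 83, lateral bud for 43 and SAM for 16, whereas fibrous root, FEC, OES, RAM and storage root together supplied the others, with 13, 12, 7, 3 and 3 loci.

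Only part of the set carries a functional annotation. Descriptions came from the study's lists of genes that differ between leaf and fibrous root, OES and FEC, or storage and fibrous root. The annotated loci were thus already chosen by differences in these data, which bears on every count, share and median by list below. A description was at hand for 101 of the 300 loci, and 33 fell in at least 1 of 14 gene lists drawn up from words in those descriptions. Among the 5156 annotated loci tested, 1.96% were members, which is the level to hold each list against. The lists with the largest shares of members were those of carbon fixation and its neighbours. The Calvin cycle list, which also takes in carbonic anhydrase, had 8 members of 21 loci, photorespiration 3 of 12, photosystem I and its antenna 2 of 10, photosynthetic electron transport 4 of 20, and photosystem II and its antenna 3 of 25. The lists were drawn up with earlier results of these data known, so these shares describe the set and support nothing beyond it.

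The genes of carbon fixation headed the set by level. The Rubisco small subunit gene Manes.01G011500 (chromosome 1, 2015239 to 2017292 on the AM560-2 v6.1 assembly) had 18972, 29168 and 35377 FPKM in the 3 leaf libraries and 10795, 13163 and 16307 FPKM in the 3 midvein libraries. It had 1649, 861 and 1248 FPKM in petiole and 1301, 1439 and 1600 FPKM in stem. It was thus far from silent in green stalks, and its lowest values were 9.39, 5.44 and 7.57 FPKM in RAM. Carbonic anhydrase, which interconverts carbon dioxide and bicarbonate, was represented by both of its copies annotated as carbonic anhydrase 1. Manes.15G167500 (chromosome 15, 13557507 to 13561764) had 9841, 9860 and 10377 FPKM in leaf and 5118, 4761 and 5196 FPKM in midvein, against 72.7, 37.0 and 63.1 FPKM in petiole, the next highest type. Its leaf libraries differed little, whereas those of Manes.17G116800 (chromosome 17, 25753957 to 25759907) were spread over 3012, 2738 and 6167 FPKM.

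Other enzymes of the cycle followed at lower levels. The A subunit of glyceraldehyde-3-phosphate dehydrogenase, which reduces the first product of fixation, came from Manes.04G096300, with 1297, 2311 and 2763 FPKM in leaf and 854, 1082 and 1487 FPKM in midvein, and from Manes.11G072400, with leaf and midvein means of 1286 and 651 FPKM. The B subunit gene Manes.05G125200 had 1166, 1682 and 2194 FPKM in leaf and 681, 712 and 1161 FPKM in midvein. Sedoheptulose-bisphosphatase, an enzyme of the regeneration phase (Manes.07G124800), had 625, 665 and 1033 FPKM in leaf and 322, 303 and 405 FPKM in midvein. Leaf and midvein libraries did not overlap for the B subunit and the bisphosphatase, and for Manes.04G096300 midvein replicate 3 lay above leaf replicate 1. A further enzyme of the stroma, annotated fructose-bisphosphate aldolase 2 and held by none of the lists, had 3 members with leaf means of 4724, 943 and 75.2 FPKM (Manes.04G083800, Manes.02G101600 and the joint locus Manes.01G143000,Manes.01G143100).

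Members made up a smaller share of the light reaction lists, as drawn up, than of the Calvin cycle list. No ATP synthase locus was among the members of those lists. Yet Manes.03G013900, Manes.02G188100, Manes.05G019500 and Manes.01G133200, described as ATP synthase or ATPase proteins, were members, with leaf means of 1728, 1035, 419 and 259 FPKM. Manes.05G065700, Manes.02G091200 and the vacuolar Manes.01G148200 were not. These loci were looked up after values were seen. The light harvesting gene Manes.07G128500, an antenna protein of photosystem II, had 1981, 2202 and 2642 FPKM in leaf and 1502, 1344 and 1545 FPKM in midvein, against 105, 54.4 and 70.3 FPKM in petiole. The PsbP-like protein 1 gene Manes.07G016300 had 83.5, 110 and 123 FPKM in leaf and 55.5, 49.7 and 57.8 FPKM in midvein. For photosystem I, the antenna gene Manes.03G042300 (photosystem I light harvesting complex gene 6) had 300, 255 and 234 FPKM in leaf and 150, 135 and 131 FPKM in midvein, and the P subunit gene Manes.01G239100 had 70.2, 132 and 152 FPKM in leaf and 54.9, 47.7 and 62.8 FPKM in midvein. These loci differed in what was left elsewhere. Manes.03G042300 kept 26.9, 25.4 and 32.1 FPKM in FEC, a callus, and Manes.01G239100 was at 0 in all storage and fibrous root libraries.

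Both genes for leaf ferredoxin-NADP(+)-oxidoreductase, which passes electrons from ferredoxin to NADP, were members. The locus Manes.02G105100,Manes.02G105200,Manes.02G105300 (form 1) had 1117, 1099 and 1292 FPKM in leaf and 578, 520 and 580 FPKM in midvein, and Manes.01G146600 (form 2) had 914, 720 and 1065 FPKM in leaf and 396, 365 and 415 FPKM in midvein. Form 1 had at least 22.8 FPKM in every library of the atlas, whereas form 2 had at most 1.11 FPKM in every storage root, fibrous root and RAM library. The thylakoid phosphatase gene Manes.01G040500 and the gene of proton gradient regulation 5 (Manes.15G044800), a factor of cyclic electron flow, completed the members of that list, with leaf means of 149 and 125 FPKM.

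The photosynthesis lists kept different parts of their leaf level in petiole and stem, and their order turned on the members. For each annotated locus with at least 10 FPKM in leaf, the mean of petiole and stem was expressed as a percent of the leaf level. The median was 5.67% over 16 Calvin cycle loci and 9.27% over 19 electron transport loci, against 16.97% over 10 photosystem I loci, 17.3% over 24 photosystem II loci, 21.3% over 8 photorespiration loci and 24.5% over 10 loci of chlorophyll and carotenoid metabolism. These medians include members, whose choice fixes a low value and which make up much of the Calvin cycle list. Over the loci that are not members, the median was 33.9% over 8 Calvin cycle loci (quartiles 12.5% and 79.3%), 11.4% over 15 electron transport loci, 18.1% over 8 photosystem I loci (16.9% and 19.6%), 18.3% over 21 photosystem II loci (14.4% and 23.9%), 43.9% over 5 photorespiration loci and 28.4% over 9 loci of chlorophyll and carotenoid metabolism. The Calvin cycle list was thus lowest only through its members. The same percent was 4.39% over the well covered members and 87.2% over 13261 tested loci of at least 10 FPKM in leaf. In 5 of 10 photosystem I loci and 12 of 25 photosystem II loci the largest gap lay below SAM, with leaf, midvein, petiole, stem, lateral bud and SAM all above it, so that they were green-organ genes and not members. No test of these differences between lists was run, and the annotated loci had been chosen by differences between types.

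**Figure D2:**
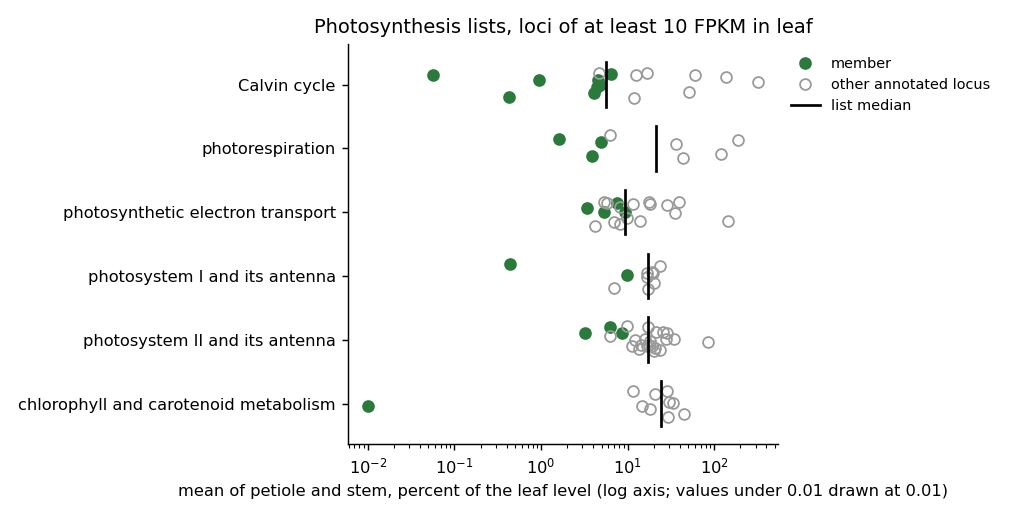
Mean FPKM of petiole and stem as a percent of the leaf level (log axis) for annotated loci of 6 photosynthesis lists with at least 10 FPKM in leaf. Filled points are members, open points are other loci and black bars are list medians, which run from 5.67% for the Calvin cycle to 24.5% for chlorophyll and carotenoid metabolism. The bars include the members, and the 8 open Calvin cycle points alone have a median of 33.9%.

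In photorespiration, the members encode enzymes of the peroxisome. Hydroxypyruvate reductase (Manes.04G076300) had 1128, 809 and 962 FPKM in leaf and 472, 411 and 434 FPKM in midvein. Alanine:glyoxylate aminotransferase, which turns glyoxylate into glycine, came from Manes.02G141600, with 508, 326 and 439 FPKM in leaf and 213, 190 and 203 FPKM in midvein, and from Manes.01G181700, with means of 273 and 141 FPKM. For both genes given by library, every leaf library lay above every midvein library. The catalase 2 gene Manes.02G113300 (chromosome 2, 8427165 to 8430230) had 1153, 1081 and 1592 FPKM in leaf and 506, 428 and 652 FPKM in midvein, and no library elsewhere exceeded 1.32 FPKM. It had the largest gap of any well covered locus (8.13).

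Copies that share a description did not all share this pattern. The catalase 2 gene Manes.01G154400 was a member at a far lower level, with 31.0, 15.4 and 18.6 FPKM in leaf and 13.2, 7.62 and 9.03 FPKM in midvein. The catalase 2 locus Manes.05G130500,Manes.05G130700, which is not a member, had 1624, 870 and 1307 FPKM in leaf and 2056, 1967 and 2344 FPKM in midvein, but also 1787, 1058 and 1293 FPKM in petiole and 854 and 1348 FPKM in storage root. In RAM it had only 2.06, 3.49 and 3.45 FPKM. Among Rubisco small subunit genes, Manes.05G137400 missed the choice with 10502, 21222 and 20774 FPKM in leaf and 1158, 318 and 636 FPKM in lateral bud. Manes.06G023400 had the opposite order, with 9.36, 4.98 and 7.29 FPKM in leaf and 869 and 1293 FPKM in storage root. Near-identical copies can share reads, so the split between copies is uncertain where the authors' counting could not place a fragment. These copies were chosen for display after their values were seen.

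**Figure D3:**
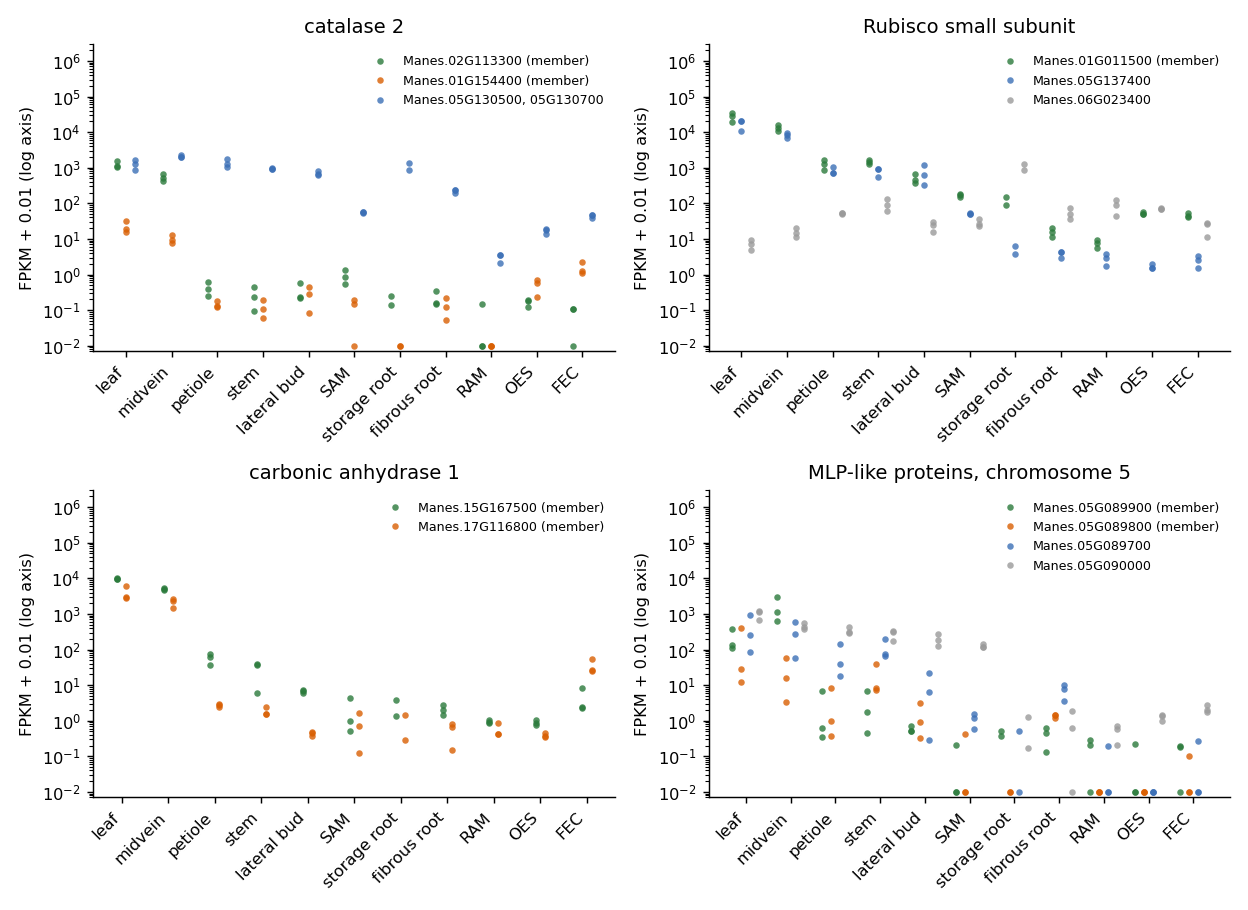
FPKM + 0.01 in each library (points, log axis) by tissue/organ type for loci that share the description catalase 2, Rubisco small subunit, carbonic anhydrase 1 or MLP-like protein 423. Colours mark the loci, and members are named in each legend. Catalase 2 gene Manes.02G113300 stays at or below 1.32 FPKM outside leaf and midvein, where Manes.05G130500,Manes.05G130700 reaches 1787 FPKM in petiole.

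The lists outside photosynthesis held few members. Of the 101 annotated members only 33 stood in any list, so the lists leave most of them undescribed. In the transcription factor list 4 of 427 loci (0.937%) were members. The B-box gene Manes.05G137600 had 316, 293 and 229 FPKM in leaf and 116, 105 and 92.9 FPKM in midvein. The Integrase-type gene Manes.01G245200, of the AP2/ERF kind of DNA-binding domain, had 80.2, 74.0 and 14.5 FPKM in leaf and 31.4, 27.8 and 20.1 FPKM in midvein, so that leaf replicate 3 lay below all midvein libraries. The other 2, named after their values were seen, were the B-box gene Manes.01G012000 and the NAC domain gene Manes.06G015000, with leaf means of 19.6 and 24.9 FPKM. The list of the circadian clock and light signalling had no member among 18 loci.

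Among hormone and transport genes, the cytochrome P450 gene Manes.01G170900 (family 707, subfamily A), whose Arabidopsis relatives break down abscisic acid, had 135, 177 and 182 FPKM in leaf and 85.1, 88.4 and 105 FPKM in midvein. Manes.04G030000, a cytochrome P450 of family 93, had 22.7, 21.5 and 32.6 FPKM in leaf and 9.96, 14.1 and 12.9 FPKM in midvein. The aquaporin gene Manes.02G109200 (plasma membrane intrinsic protein 3) had 180, 210 and 155 FPKM in leaf and 98.4, 77.6 and 78.5 FPKM in midvein. In petiole, the organ next to the midvein, it had 0.0900, 0 and 0 FPKM. The sulfate transporter 2;1 gene Manes.18G070600 had 28.8, 28.0 and 72.7 FPKM in leaf and 21.7, 20.03 and 38.6 FPKM in midvein. The jasmonic acid carboxyl methyltransferase gene Manes.05G156400, whose product makes methyl jasmonate, had 28.4, 47.6 and 60.0 FPKM in leaf and 26.9, 27.5 and 54.2 FPKM in midvein. In both of the last pair the leaf and midvein libraries overlapped.

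The remaining lists each had a single member. The GDSL-like lipase locus Manes.02G163100,Manes.02G163300 of the cuticle and wax list had 642, 588 and 494 FPKM in leaf and 307, 270 and 183 FPKM in midvein. The TRICHOME BIREFRINGENCE-LIKE 27 gene Manes.01G197400 had 41.8, 33.1 and 29.3 FPKM in leaf and 22.1, 22.9 and 17.4 FPKM in midvein. The terpene synthase 21 gene Manes.02G086300 had 25.5, 18.4 and 20.5 FPKM in leaf and 19.3, 20.6 and 18.7 FPKM in midvein, which overlapped, and no library elsewhere exceeded 0.287 FPKM. The chlorophyllase 1 gene Manes.05G081100, an enzyme of chlorophyll breakdown, had 13.2, 2.41 and 21.1 FPKM in leaf and 9.89, 7.01 and 6.45 FPKM in midvein, was listed at 0 in all other libraries and was among the loci with fewer than 10 fragments in a leaf library. Among loci without a description, Manes.01G074200, with 204, 122 and 314 FPKM in leaf and 78.4, 74.4 and 150 FPKM in midvein, and Manes.17G079900, with 218, 203 and 158 FPKM in leaf and 82.5, 85.4 and 76.8 FPKM in midvein, had the next largest gaps after catalase 2 and carbonic anhydrase.

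The loci lay on all 18 chromosomes, with 10 to 27 on each, and 4 lay on scaffolds. Of them, 12 pairs were neighbours within 2 gene numbers. The pairs included the carbonic anhydrase gene Manes.17G116800 with Manes.17G116700, which has no description, and the MLP-like protein 423 genes Manes.05G089800 and Manes.05G089900. Of the 300 loci, 13 carried several gene names, and 14 had a name that also stood on another locus.

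Among the chosen loci, midvein levels followed leaf levels closely, at a lower height. For the 273 well covered loci above the gap in leaf and midvein, the ratio of the midvein mean to the leaf mean had a median of 0.479, with a range from the 10th to the 90th percentile of 0.381 to 0.587. The ratio was below 1 for 268 loci and at least 1 for 5. Over 12961 other named loci of at least 10 FPKM in leaf, the median ratio was 0.857 and the same range was 0.526 to 1.37. The 2 ranges are not on the same footing. The choice put leaf and midvein above the largest gap, so it excluded any wider step between them. The green tissue list of 30 loci, 5 of them members, summed to 50340 to 59444 FPKM in midvein libraries and 102383 to 117088 FPKM in leaf libraries. Xylem genes (10 loci) summed to 14.7 to 39.4 FPKM in midvein and 1.71 to 7.996 FPKM in leaf, and phloem genes (11 loci) to 224 to 236 FPKM in midvein and 186 to 219 FPKM in leaf. Marker lists drawn from words did not all peak in the tissue they name. Shoot meristem words summed to 678 FPKM in FEC and 314 FPKM in SAM, and guard cell words to 5.64 FPKM in RAM and 0.186 FPKM in leaf. The part that leaf blade tissue in the midvein samples had in these ratios was not tested.

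**Figure D4:**
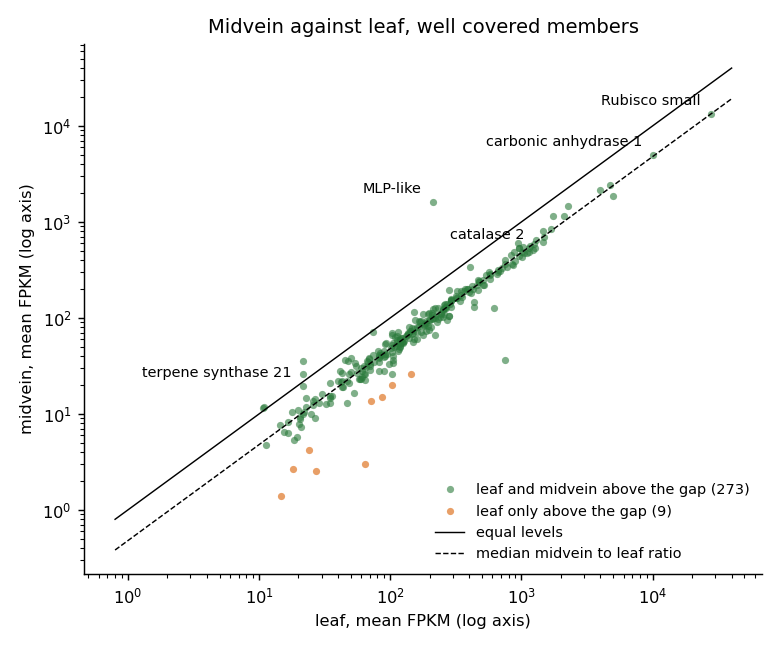
Mean FPKM in midvein (vertical axis) against leaf (horizontal axis) for the 282 well covered loci, both on log axes. The dashed line marks the median ratio of 0.479 and the solid line equal levels. MLP-like protein 423 gene Manes.05G089900 stands far above both lines, and terpene synthase 21 lies near the solid line.

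A few loci left that common ratio, among them a gene of the MLP-like family of small ligand-binding proteins. Manes.05G089900 (chromosome 5, 7341493 to 7342372) had 620, 3032 and 1148 FPKM in midvein and 138, 383 and 111 FPKM in leaf, with no overlap, and its ratio of 7.58 was the highest of all. Its neighbour Manes.05G089800 lay above the gap in leaf only, so the choice itself fixed a low ratio of its means. Manes.05G089800 had 58.7, 3.29 and 15.4 FPKM in midvein and 394, 11.9 and 28.3 FPKM in leaf, so that both tissues were highest in replicate 1 and overlapped. The next genes on each side with the same description were not members. Manes.05G089700 had 911, 83.9 and 264 FPKM in leaf, and Manes.05G090000 had 656, 1160 and 1206 FPKM in leaf and 284, 304 and 422 FPKM in petiole. Manes.17G101600, without a description and named after its values were seen, had 26.7, 31.6 and 52.3 FPKM in midvein and 283, 860 and 1102 FPKM in leaf.

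Replicates differed more for these loci than for others. The choice used the means of these same leaf and midvein libraries, and a single high library can raise a mean. The part of the choice in the contrasts below was not tested. The median coefficient of variation over the leaf libraries was 0.243 for the well covered loci, against 0.181 for other loci of at least 10 FPKM in leaf, and over the midvein libraries it was 0.182 against 0.129. The highest leaf library was replicate 3 for 158 loci, replicate 1 for 90 and replicate 2 for 34. In midvein it was replicate 3 for 135, replicate 1 for 120 and replicate 2 for 27. Libraries of the same number tended to be high together. For 203 of the 282 loci (72.0%) the highest leaf and the highest midvein library had the same number, as they did for 7366 of 12961 other loci of at least 10 FPKM in leaf (56.8%). In leaf, 5 well covered loci had a coefficient of variation above 1. Apart from them, the heat shock protein 21 gene Manes.01G042200, a chaperone of the chloroplast named after its values were seen, had 3728 FPKM in leaf replicate 1 but 0.695 and 1.93 FPKM in the other leaf libraries, so that its place in the set rested on a single library. It was also highest in replicate 1 of midvein (222, 17.6 and 54.3 FPKM), storage root (292 and 20.2 FPKM) and fibrous root (116, 0.217 and 0.822 FPKM), but lowest in replicate 1 of petiole, stem and lateral bud.

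Differences among the types below the gap were tested, because the choice of the loci did not set their direction. It did bound each step between neighbours in the order of types, which could not exceed the gap that chose the locus, though a difference between types can span several steps. Petiole was compared with stem, SAM with RAM, storage root with fibrous root and OES with FEC, pairs that share no library. A locus was called at an adjusted p below 0.05 and a log2 fold change beyond 2 in either direction, in the quasi-likelihood fit of edgeR, with p-values adjusted by Benjamini-Hochberg over all 27855 loci. The p-values measure only the spread between these samples. Of the 300 loci, 160 were called in no comparison, 98 in 1, 37 in 2, 4 in 3 and 1 in all 4. Such counts are not given for all loci tested, so these describe the set and do not set it apart.

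**Figure D5:**
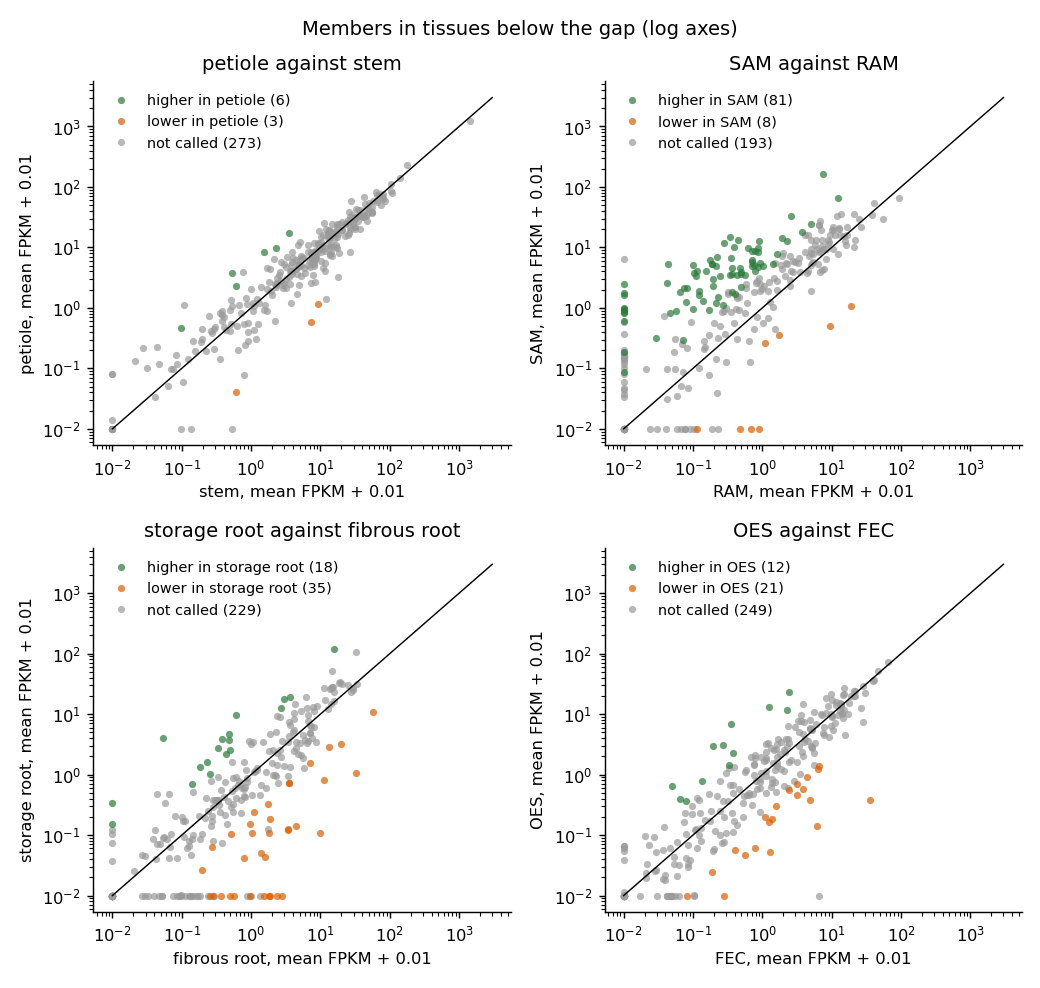
Mean FPKM + 0.01 of the 282 well covered loci in petiole against stem, SAM against RAM, storage root against fibrous root and OES against FEC (log axes, first type on the vertical axis). Coloured points passed the test and the solid line marks equal levels. In SAM against RAM, 81 well covered loci lie above the line as called higher and 8 below it as called lower.

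Few of the loci differed between petiole and stem, as was so over all loci tested. In petiole against stem, 7 of the 300 loci were higher and 3 lower (2.33% and 1%), against 0.707% higher and 1.91% lower over all loci tested. Over the 265 well covered loci above 3 fragments in some library of the pair, the median log2 ratio was 0.10, against 0.08 over all loci. Over the members the split turned with the method: 3 were higher and 5 lower with limma on log2(FPKM + 0.1), 1 and 2 at a pseudocount of 1, and 12 and 13 without a fold limit. Over all loci tested, those settings called 703, 368 and 2214 in both directions together. Of the Calvin cycle, photorespiration and photosystem I lists, no locus was called, and photosystem II and electron transport each had 1 locus higher, which was not a member.

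Of the 10 called loci, 3 carry a description, and none of these is a photosynthesis gene. Jasmonic acid carboxyl methyltransferase (Manes.05G156400) had 4.12, 2.37 and 4.68 FPKM in petiole and 0.620, 0.440 and 0.506 FPKM in stem, without overlap (log2 fold change 2.91, SE 0.51, adjusted p = 0.00051, edgeR). The auxin response repressor gene Manes.05G084300 (indole-3-acetic acid inducible 14) had 17.2, 18.5 and 16.3 FPKM in petiole and 3.70, 3.18 and 3.48 FPKM in stem (2.32, SE 0.52, adjusted p = 0.0056, edgeR). It was the only locus called in all 4 comparisons. Manes.10G048100 had 4.14, 7.16 and 3.04 FPKM in petiole and 1.10, 0.896 and 0.474 FPKM in stem (2.53, SE 0.69, adjusted p = 0.025, edgeR).

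For the 3 loci lower in petiole, no petiole library reached the lowest stem library. Manes.02G173600 had 2.61, 0 and 0.836 FPKM in petiole and 11.5, 10.3 and 6.14 FPKM in stem (log2 fold change -2.84, SE 0.50, adjusted p = 0.0025, edgeR). Manes.01G215000 had 1.36, 0 and 0.347 FPKM in petiole and 13.0, 6.26 and 3.02 FPKM in stem (-3.52, SE 0.95, adjusted p = 0.022, edgeR). The aquaporin gene Manes.02G109200 had 0.0900, 0 and 0 FPKM in petiole, from 1 fragment, and 0.645, 0.209 and 0.927 FPKM in stem, from 24 fragments, a ratio of 16.3 after scaling to library size, in favour of stem, with a 95% exact counting interval of 2.66 to 671 (adjusted p = 0.019, edgeR). The count of 10 calls was 5 without petiole replicate 3 and 5 without stem replicate 1, 4 with only these libraries in the fit and 3 with limma on log2(FPKM + 1). Over all loci tested, those settings called 540, 726, 492 and 368, against 730 in the main fit. Without petiole replicate 1 the log2 fold change was -3.95 for Manes.02G173600 and -5.00 for Manes.01G215000, and that of Manes.01G215000 was -2.83 without stem replicate 1. The call of Manes.01G215000 was lost without petiole replicate 2 or 3 or stem replicate 1, and that of Manes.10G048100 without petiole replicate 1 or 2 or stem replicate 1 or 2.

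SAM against RAM gave the most calls. In it 82 of the 300 loci were higher and 8 lower (27.3% and 2.67%), against 10% higher and 10.8% lower over all loci tested. The median log2 ratio of the 222 well covered loci above 3 fragments was 1.42, against 0.34 over all loci, and 196 of them were above 0. Levels were low all the same. Of the 82 loci, 13 reached 10 FPKM in SAM, 55 lay between 1 and 10 FPKM and 14 below 1 FPKM. Members entered the test through their leaf level and the other loci through any type, so the shares are not on the same footing. Of the well covered loci, 60 had at most 3 fragments in every SAM and RAM library, and the NAC gene Manes.06G015000 was called with at most 1 fragment in a SAM library and 0 in RAM.

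Genes of carbon fixation and electron transport were among those higher in SAM. Rubisco small subunit gene Manes.01G011500 had 178, 148 and 174 FPKM in SAM and 9.39, 5.44 and 7.57 FPKM in RAM (log2 fold change 4.45, SE 0.36, adjusted p = 2.1e-10, edgeR). Ferredoxin-NADP(+)-oxidoreductase 2 (Manes.01G146600) had 15, 14.6 and 15.6 FPKM in SAM and 0.672, 0.327 and 0 FPKM in RAM (5.60, SE 0.35, adjusted p = 2.0e-12, edgeR). No library of either gene overlapped between the meristems. Sedoheptulose-bisphosphatase (Manes.07G124800) had 5.72, 5.98 and 4.06 FPKM in SAM and 0.161, 0.196 and 0.180 FPKM in RAM (4.81, SE 0.46, adjusted p = 3.2e-09, edgeR), and glyceraldehyde 3-phosphate dehydrogenase A (Manes.04G096300) had 12.9, 12.4 and 10.4 FPKM in SAM and 0.156, 0.214 and 0.441 FPKM in RAM (5.41, SE 0.50, adjusted p = 1.9e-09, edgeR).

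Other members were higher too, some of them without a description. The abscisic acid breakdown gene Manes.01G170900 had 11.1, 16.1 and 13.1 FPKM in SAM and 0.145, 0.393 and 0.779 FPKM in RAM (4.82, SE 0.45, adjusted p = 2.1e-09, edgeR). The aquaporin gene Manes.02G109200 had 5.59, 3.56 and 3.00 FPKM in SAM and 0.0958, 0 and 0.214 FPKM in RAM, from 103 fragments in SAM and 3 in RAM, a ratio of 55.1 after scaling to library size with a 95% exact counting interval of 18.3 to 272 (adjusted p = 1.6e-07, edgeR). Manes.15G163100, which has no description, had 22.4, 16.4 and 27.8 FPKM in SAM and 0 in every RAM library, at least 26.1-fold higher in SAM against a floor of 3 fragments per library (adjusted p = 0.0043, edgeR). Manes.09G142000, also without one, had 2.75, 2.02 and 2.55 FPKM in SAM and 0 in every RAM library, at least 19.4-fold higher (adjusted p = 2.5e-05, edgeR).

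The loci lower in SAM were few. Indole-3-acetic acid inducible 14 (Manes.05G084300) had 0.640, 0.127 and 2.46 FPKM in SAM and 9.98, 15.3 and 31.1 FPKM in RAM (-4.24, SE 0.65, adjusted p = 6.1e-06, edgeR), and the log2 fold change was -5.57 without SAM replicate 3. Manes.01G101500 had 0.359, 0.177 and 0.929 FPKM in SAM and 2.76, 22.05 and 3.45 FPKM in RAM (-4.38, SE 0.85, adjusted p = 9.6e-05, edgeR), with RAM replicate 2 far above the others. Its log2 fold change was -2.76 without RAM replicate 2 and -5.10 without SAM replicate 3.

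Loci of these pathways that are not members were called as well. Of 10 photosystem I loci 8 were higher in SAM, of 25 photosystem II loci 20, of 20 electron transport loci 10, and none of these was lower. Members made up 0, 2 and 2 of these. The Calvin cycle list had 8 loci higher and 4 lower of 21, and of these 4 of the higher loci and none of the lower were members. The green tissue list summed to 2872 to 3390 FPKM in SAM and 114 to 166 FPKM in RAM, and the 25 of its loci that are not members to 2674 to 3219 FPKM in SAM and 89.6 to 153 FPKM in RAM. Manes.06G023400, a Rubisco small subunit gene low in leaf that these sums include, had 35.2, 25.8 and 23.0 FPKM in SAM and 45.3, 122 and 89.3 FPKM in RAM. The part of green tissue around the SAM in these calls was not tested. With limma on log2(FPKM + 1), 32 members were called.

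The split between the root types depended on the fold limit. In storage root against fibrous root, 18 of the 300 loci were higher and 35 lower (6% and 11.7%), against 5.56% higher and 16.3% lower over all loci tested. Without a fold limit 50 were higher and 48 lower, at a log2 fold change above 1 it was 38 and 46, and with limma on log2(FPKM + 1) it was 5 and 6. Over all loci tested, those settings called 14506, 10535 and 3281 in both directions together, against 6080 in the main fit. The median log2 ratio of the 197 well covered loci above 3 fragments was -0.48, against -0.52 over all loci. A further 85 well covered loci had at most 3 fragments in every library of both root types.

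Among loci higher in storage root, the Rubisco gene Manes.01G011500 had 86.9 and 151 FPKM in storage root and 19.7, 11.5 and 15.6 FPKM in fibrous root (log2 fold change 2.97, SE 0.35, adjusted p = 1.6e-07, edgeR). Manes.02G035000 had 8.14 and 10.9 FPKM in storage root and 1.02, 0.423 and 0.371 FPKM in fibrous root (3.98, SE 0.47, adjusted p = 1.6e-07, edgeR), with a log2 fold change of 4.62 without fibrous root replicate 1. Manes.05G173900 had 3.15 and 4.97 FPKM in storage root and 0, 0 and 0.129 FPKM in fibrous root, which stand for 59 fragments in storage root and 1 in fibrous root, a ratio of 80.1 after scaling to library size with a 95% exact counting interval of 13.8 to 3215 (adjusted p = 3.1e-07, edgeR). The green tissue list summed to 1389 to 1993 FPKM in storage root and 140 to 182 FPKM in fibrous root. Most of the storage root sum came from 1 locus of that list, Rubisco small subunit gene Manes.06G023400. It had 869 and 1293 FPKM in storage root, against 36.0 and 52.5 FPKM for light harvesting gene Manes.08G091700. In leaf Manes.06G023400 had 9.36, 4.98 and 7.29 FPKM, so a gene with a green tissue description need not follow green tissue. The part of green tissue in these calls was not tested.

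Among loci lower in storage root, jasmonic acid carboxyl methyltransferase (Manes.05G156400) had 0.115 and 0.108 FPKM in storage root and 1.77, 1.93 and 6.45 FPKM in fibrous root, or 2 fragments in storage root and 119 in fibrous root, a ratio of 43.8 after scaling, in favour of fibrous root, with a 95% exact counting interval of 11.9 to 366 (adjusted p = 1.9e-05, edgeR). Manes.16G054500 was at 0 in both storage root libraries and had 1.06, 1.53 and 2.95 FPKM in fibrous root, at least 31.2-fold lower against a floor of 3 fragments per library (adjusted p = 6.1e-08, edgeR). Manes.10G011300 was also at 0 in storage root and had 1.62, 1.82 and 3.67 FPKM in fibrous root, at least 16.3-fold lower (adjusted p = 2.9e-07, edgeR). Indole-3-acetic acid inducible 14 (Manes.05G084300) was at 0 in storage root and had 1.79, 2.35 and 1.18 FPKM in fibrous root, at least 7.26-fold lower (adjusted p = 0.0040, edgeR). The storage root values come from 2 libraries.

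Between the embryogenic cultures, members were called at shares near those of all loci. In OES against FEC, 12 of the 300 loci were higher and 23 lower (4% and 7.67%), against 6.47% higher and 6.26% lower over all loci tested, and the median log2 ratio of the 213 well covered loci above 3 fragments was -0.02, against -0.03 over all loci. Of the Calvin cycle list 2 loci were higher and 9 lower, and 1 and 3 of those were members. Those counts were not tested as a group. The descriptions come in part from a list of genes that differ between OES and FEC, so the counts cannot show how common such calls are.

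Sedoheptulose-bisphosphatase (Manes.07G124800) had 2.70, 3.16 and 3.41 FPKM in OES and 0.344, 0.206 and 0.227 FPKM in FEC (log2 fold change 3.53, SE 0.37, adjusted p = 3.9e-08, edgeR). The rubredoxin family gene Manes.08G164800 (iron-binding electron carriers) had 6.37, 6.29 and 7.83 FPKM in OES and 0.636, 0.111 and 0.268 FPKM in FEC (4.67, SE 0.31, adjusted p = 1.3e-11, edgeR). Manes.12G038000 had 3.71, 2.15 and 3.11 FPKM in OES and 0.183, 0.368 and 0 FPKM in FEC (4.20, SE 0.61, adjusted p = 5.2e-06, edgeR), with a log2 fold change of 5.37 without FEC replicate 2 and 3.45 without FEC replicate 3. None of these overlapped between the cultures.

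In the other direction, carbonic anhydrase gene Manes.17G116800 had 0.361, 0.328 and 0.431 FPKM in OES and 26.8, 54.5 and 24.4 FPKM in FEC (-6.59, SE 0.53, adjusted p = 4.8e-10, edgeR). Its neighbour Manes.17G116700 had 0.0611, 0 and 0.0673 FPKM in OES and 1.01, 2.03 and 0.768 FPKM in FEC (-4.68, SE 0.79, adjusted p = 3.6e-05, edgeR). The other carbonic anhydrase gene Manes.15G167500 was lower as well, with 0.765, 1.04 and 0.874 FPKM in OES and 2.47, 8.25 and 2.29 FPKM in FEC (-2.46, SE 0.64, adjusted p = 0.0030, edgeR). The malate dehydrogenase family gene Manes.07G133100 had 0.160, 0.0516 and 0.176 FPKM in OES and 4.77, 8.73 and 5.13 FPKM in FEC (-4.61, SE 0.44, adjusted p = 7.5e-09, edgeR). FEC replicate 2 was the highest library for each of these 4 genes. The green tissue list ran the other way, with 389 to 453 FPKM in OES and 136 to 161 FPKM in FEC. With limma, 22 members were called at a pseudocount of 0.1 and 7 at a pseudocount of 1, where 4 were higher and 3 lower.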

How the data were processed

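Reads were trimmed by the authors (Trimmomatic 0.32) and aligned with TopHat2 (2.0.10 in the submitters' processing notes) against AM560-2 v6.1. Gene models were then assembled with Cufflinks 2.2.1, and Cuffdiff 2.2.1 gave a value for each library. The deposited FPKM, scaled by Cuffdiff, gave the levels and the choice of loci. The test used the deposited estimated counts of fragments (78.2% of values above 0 are exactly whole, and 81.7% lie within 0.01 of a whole number), which were rounded first. Libraries held 4175114 to 24123487 fragments on named loci. Counting intervals and floors cover counting error only.

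The members and gene lists were chosen with earlier results of these data known, and the word patterns of the lists were corrected after values had been seen. Gene descriptions and positions came from the study's gene lists, which describe 15.9% of the named loci. Those are lists of genes that differ between leaf and fibrous root, OES and FEC, or storage root and fibrous root. No sequences are shown, since none for these gene names was at hand.

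Tests used edgeR 4.0.16 in R 4.3.3, with all 32 libraries, 11 type means, TMM factors between 0.720 and 1.15 and a biological coefficient of variation of 0.264 common to all loci. A named locus was tested if some type's mean reached 1 FPKM (27855 loci, every member included). Standard errors are the log2 fold change over the square root of F. Tested on simulated data with 200 loci changed 8-fold, the fit recovered 100% in petiole against stem, SAM against RAM and OES against FEC, and 99.5% in storage root against fibrous root. Recovery is not given by level, so it does not extend to members near the floor. At most 3 fragments in every library were held by 60 well covered members in SAM and RAM and by 85 in the root types. Limma 3.58.1, DESeq2 1.42.0, other scalings, filters, fold limits, a replicate block and leaving out each library were alternatives. Restricting members to those with at least 10 fragments in every leaf library was added after seeing the data. Plots were drawn with matplotlib 3.10.9, and intervals came from scipy 1.17.1, in Python 3.11.15 (numpy 2.4.6, pandas 2.3.3).

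Genes were named by rule: the 6 largest gaps in leaf and midvein and the 6 in leaf only, the 2 highest leaf means of each gene list, the 2 largest changes of at least 1 FPKM per comparison and direction, the 2 loci on each side of the gap limit, the 3 highest leaf means, and the highest and lowest ratio of midvein to leaf. The lowest ratio and 1 of the highest means belong to Manes.10G051400. Other genes that illustrate a list or a comparison were chosen after their values were seen.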

Additional observations from a re-analysis of the deposited data

How the results depend on the processing

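The 575 loci that met the rule became 341 with a gap of at least 2 and 1012 with a gap of at least 1, and 554 to 624 when single libraries were left out. In petiole against stem, the 10 called members became 3 with limma on log2(FPKM + 1), 4 with only the compared libraries in the fit, 25 without a fold limit, 19 at a log2 fold change above 1, and 5 to 10 when single libraries were left out. In SAM against RAM, the 90 called members became 32 with limma on log2(FPKM + 1), 149 without a fold limit and 84 to 92 when single libraries were left out. Over all loci the 5793 calls became 3204, 15218 and 5526 to 5867. Both directions together, the members' share exceeded that of all loci in the main fit. With that limma setting and without a fold limit it did not. In storage root against fibrous root, the 53 called members became 11 with limma on log2(FPKM + 1), 98 without a fold limit, 84 at a log2 fold change above 1 and 44 to 54 when single libraries were left out. Over all loci the 6080 calls became 3281, 14506, 10535 and 4770 to 6269. In OES against FEC, the 35 called members became 22 and 7 with limma at pseudocounts of 0.1 and 1, 91 without a fold limit, 68 at a log2 fold change above 1 and 31 to 39 when single libraries were left out. Over all loci the 3545 calls became 3100, 1563, 11156, 6930 and 3192 to 3497. A pseudocount of 1 shrinks the fold change of loci at low FPKM, where many of the calls lie, and for the other changes the cause was not tested.

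With a replicate block, 11, 89, 52 and 35 members were called in petiole against stem, SAM against RAM, storage root against fibrous root and OES against FEC. Over all loci the block gave 727, 5745, 5995 and 3525 calls. The labels tie the libraries of these comparisons only by number. The correlation of the deviations of same-numbered libraries was 0.0352 to 0.142 in petiole and stem, -0.0218 to 0.0360 in SAM and RAM, and below 0 in the other comparisons. In petiole and stem every library correlated best with its own number, a hint from the data and not from the design. DESeq2 called 11, 93, 52 and 37 members, and the 282 well covered loci gave 9, 89, 53 and 33. Over all loci DESeq2 called 756, 5608, 5888 and 3368. Of 220 alternative values for single named genes, 17 lost the call and none changed direction. Loci at or below 3 fragments in both types of a comparison, 17, 60, 85 and 69 of the well covered loci, limit what can be seen in each.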
